A study of Sus scrofa with 9 samples.

Results

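The enzymes that oxidise fatty acids, pyruvate and acetyl-CoA in mitochondria were followed in the left ventricle of newborn, 7-day-old and 15-day-old pigs. The list held 37 enzymes and subunits, and members were taken as the rows of the deposited table whose gene name equals a listed symbol. This found 35 of the 37 among the 22629 rows of the table. The other two, PDHA1 and CS, are carried under Ensembl identifiers and are described separately. The libraries came from wild type, untreated animals, with 3 libraries on postnatal day 0 (replicates 4, 5 and 6), 3 on day 7 (replicates 2, 5 and 6) and 3 on day 15 (replicates 1, 2 and 6). The RNA was extracted from frozen ventricular tissue and sequenced as stranded mRNA libraries. Breed, sex and litter are not given in the labels. The values are TPM, the transcript share of a gene in its library after division by transcript length, so levels of different genes can be compared within a library but the depth behind a value is unknown. Whether each library stands for its own animal is not stated in the labels. The p-values therefore reflect only library-to-library spread, part of which may be technical.

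Fatty acids enter beta-oxidation as acyl-CoA, and each turn of the cycle runs through an acyl-CoA dehydrogenase, an enoyl-CoA hydratase, a hydroxyacyl-CoA dehydrogenase and a thiolase. Pyruvate from glucose and lactate enters through the pyruvate dehydrogenase complex, and both routes deliver acetyl-CoA to the tricarboxylic acid (TCA) cycle. The heart is known to move from glucose and lactate towards fatty acids as its main fuel after birth.

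The libraries differed in composition before any member was considered. The most abundant gene, which carries no symbol, held 24.0% of all TPM in newborn replicate 6 and 46.0% in day 15 replicate 1, and 30.6% to 37.2% in the other libraries. The median log2(TPM + 1) of the 12268 genes tested lay 0.21 above the 9-library mean of each gene in newborn replicate 6 and at a deviation of -0.33 from it in day 15 replicate 1. Pearson correlations between libraries across these genes, which are not independent replicates, ranged from 0.965 to 0.991 for libraries of the same age and from 0.914 to 0.977 for libraries of different ages. Cardiomyocyte genes were high at every age, with the ventricular light chain MYL2 at 1532, 1887 and 1492 TPM in the newborn libraries, 2800.0, 2786 and 1749.6 TPM at day 7 and 2301, 2733 and 2108 TPM at day 15.

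**Figure D1:**
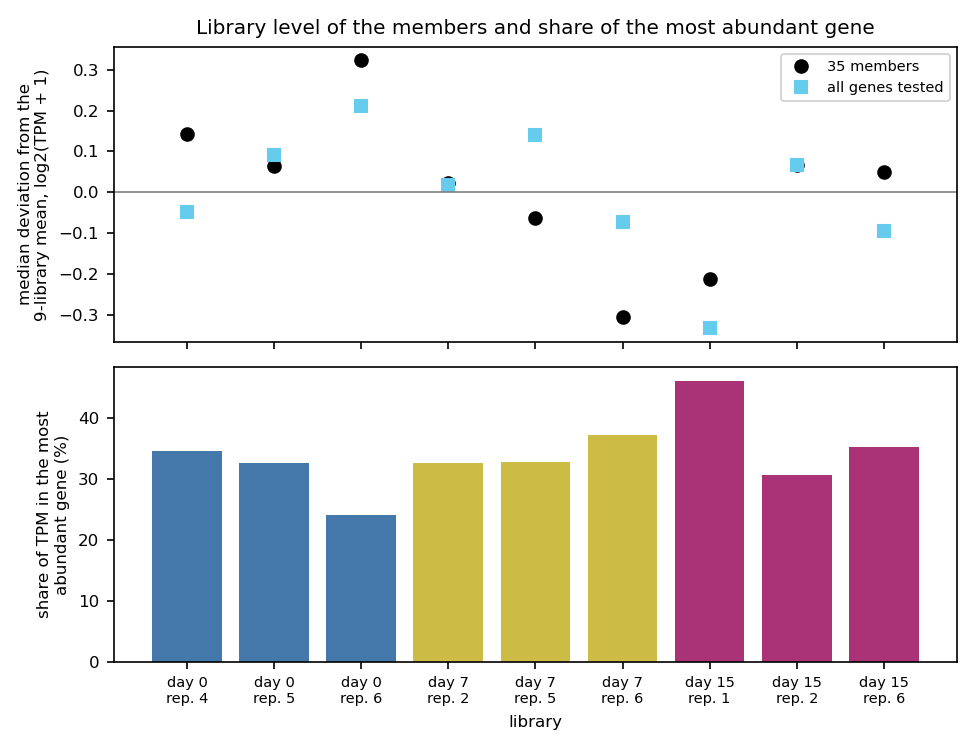
The upper panel gives, for each library, the median deviation of log2(TPM + 1) from the 9-library mean over the 35 members (circles) and over all genes tested (squares). The lower panel gives the share of TPM held by the most abundant gene, with bars coloured by age; the share was highest in day 15 replicate 1 (46.0%), where the median over all genes tested was lowest (-0.33).

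A gene was tested when at least 3 libraries held at least 1 TPM, and all 35 members passed this filter. Differences between ages were tested with limma on log2(TPM + 1), and "rose" or "fell" is used for a Benjamini-Hochberg adjusted p under 0.05 over all 12268 genes. Differences below are log2 differences of TPM + 1, levels are TPM, and means are given ± SD (n = 3 per age). The contrasts share libraries, so a pattern seen in 2 of them is not independent.

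From day 0 to day 7, 1 of the 35 members rose and 5 fell, against 7.67% of all genes tested that rose and 8.88% that fell. From day 0 to day 15, 4 rose and 4 fell, against 5.53% and 18.4% of all genes. For both directions together, the member share was 17.1% beside 16.6% of all genes at day 7, and 22.9% beside 23.9% at day 15, so the share of members that changed was close to that of genes in general. Over the first week their median difference was -0.29, beside -0.04 for all genes tested, and over the 2 weeks it was -0.20, beside -0.19. The members that rose were the acyl-CoA dehydrogenases ACADL, ACADM and ACADS and the reductase DECR1. Those that fell were the hydratase ECHS1, the isocitrate dehydrogenase subunits IDH3A and IDH3B, the dehydrogenase complex subunits DLAT and DLD, and pyruvate carboxylase, PC.

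Scaling between libraries changed this balance. With libraries scaled by the median of ratios, the median of all genes moved from -0.19 to 0.03 for day 15 against day 0 and from -0.15 to 0.00 for day 15 against day 7, and the member median for day 15 against day 0 moved from -0.20 to 0.07. On that scale 6 members rose and 5 fell by day 7, which is 17.1% and 14.3% of them, against 16.8% and 14.4% of all genes tested. By day 15, 10 rose and 2 fell (28.6% and 5.71%), against 16.5% and 14.7% of all genes. All 6 members called at day 7 and 6 of the 8 called at day 15 were also called on that scale, and the other two were IDH3B and PC. Without newborn replicate 6, 0 members rose and 0 fell by day 7, and 1 rose and 1 fell by day 15. Calls over all genes were fewer as well in that fit, with 1.6% rising and 1.6% falling by day 7, and 1.61% and 5.04% by day 15. Without day 15 replicate 1, 2 rose and 6 fell by day 7, and the day 15 counts were 6 and 3, against 9.89%, 12%, 6.96% and 10.8% of all genes. In bulk tissue, fewer cells of a type and less RNA per cell cannot be told apart.

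**Figure D2:**
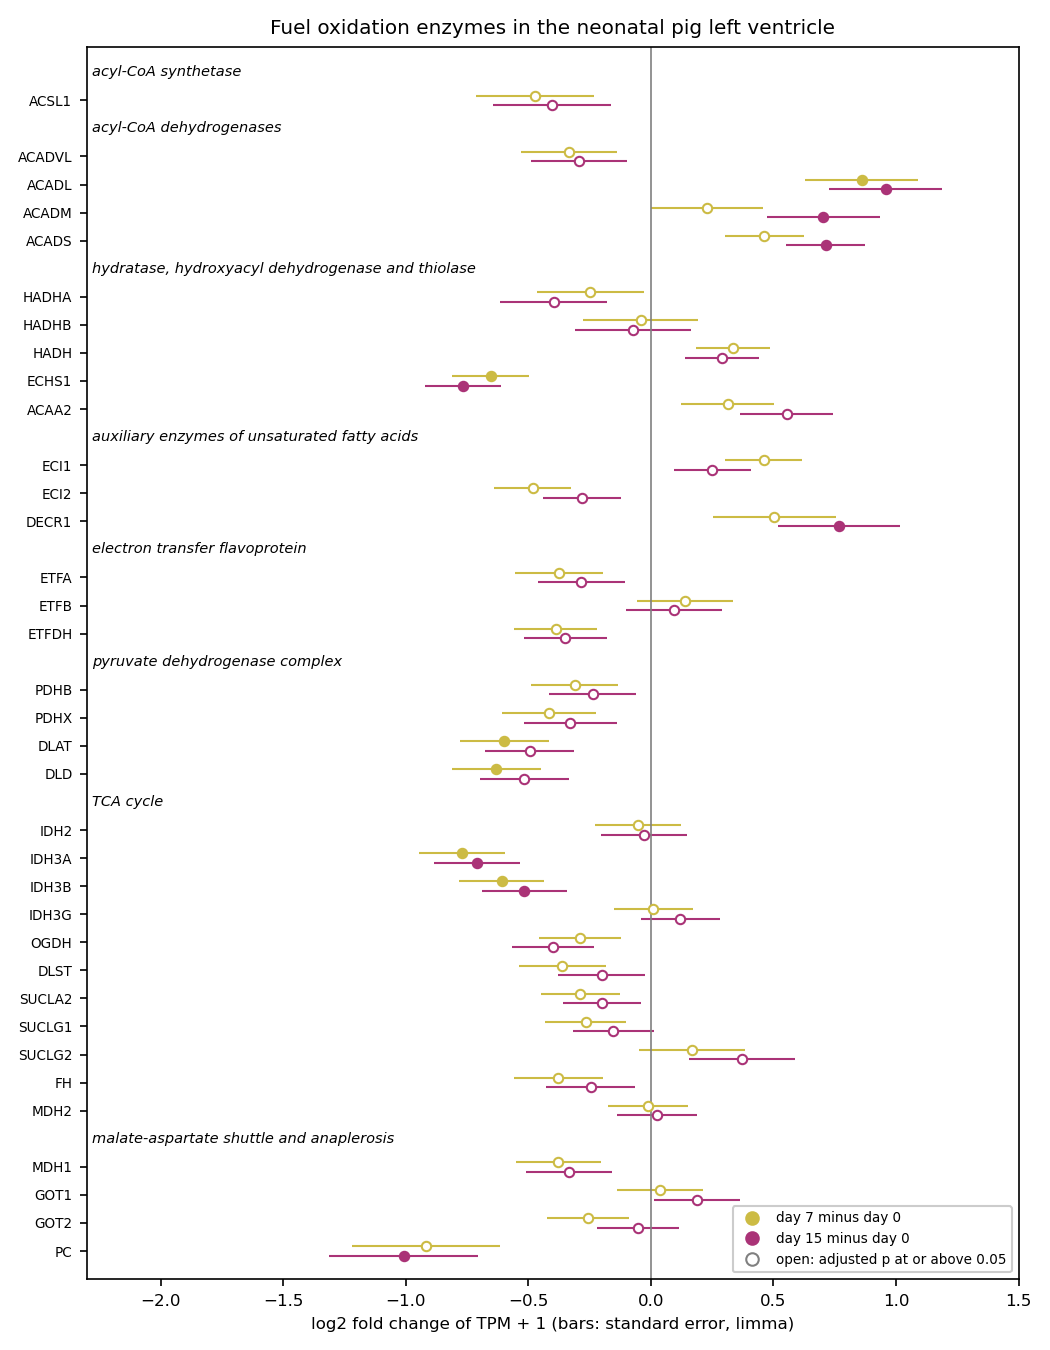
Log2 fold changes of TPM + 1 (x axis) for the 35 members grouped by role (y axis), with day 7 minus day 0 in yellow and day 15 minus day 0 in purple, bars of 1 standard error, and filled circles where the limma adjusted p was under 0.05. ACADL, ACADM and ACADS lie to the right of zero, with ACADL at 0.96 by day 15, and ECHS1 and IDH3A lie to the left at -0.77 and -0.71.

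The members were abundant and even across libraries. Their median level was 114 TPM, against 7.78 TPM for all genes tested. Of the 35, 28 (80.0%) varied less than 2-fold between the highest and the lowest library, against 34.2% of all genes tested. The members were not compared with genes of like abundance. MDH1, the cytosolic malate dehydrogenase, was the most abundant at a mean of 1024 TPM over the 9 libraries, followed by the NADP-linked isocitrate dehydrogenase IDH2 at 648 TPM and the mitochondrial malate dehydrogenase MDH2 at 514 TPM. These 3 genes stood in that order in each of the 9 libraries. PC was the least abundant at 2.26 TPM, followed by DECR1 at 25.8 TPM and ECHS1 at 35.7 TPM.

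Long-chain acyl-CoA synthetase 1, ACSL1, which activates fatty acids to acyl-CoA, held 209, 123 and 241 TPM in newborn replicates 4, 5 and 6, 136, 143 and 118 TPM at day 7 and 112, 156 and 151 TPM at day 15. Newborn replicate 5 stood apart from the other newborn libraries and lay within the range of the older ones. The difference did not pass (day 7 minus day 0 -0.47, limma adjusted p = 0.185). Without newborn replicate 5, the difference was -0.76 at day 7 (limma adjusted p = 0.0259) and -0.69 at day 15 (limma adjusted p = 0.0321). This was the only 1 of 20 alternative settings in which ACSL1 passed at either age. Without newborn replicate 6 the limma adjusted p was 0.529 at day 7 and 0.638 at day 15. After median-of-ratios scaling it was 0.187 and 0.650.

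The acyl-CoA dehydrogenases carry out the first step of each turn and differ in the chain length they prefer. Very-long-chain ACADVL was the most abundant of the 4 and was the one that did not rise, while long-chain ACADL, medium-chain ACADM and short-chain ACADS each rose by day 15. ACADVL held 466, 357 and 519 TPM in the newborn libraries, 431, 316 and 316 TPM at day 7 and 327, 411 and 349 TPM at day 15. These ranges overlap, and the day 15 difference of -0.29 had a 95% interval of -0.72 to 0.13 (limma adjusted p = 0.289).

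ACADL held 48.7, 64.7 and 47.7 TPM in the newborn libraries, 93.5, 117 and 84.6 TPM at day 7 and 75.5, 138 and 109 TPM at day 15. Every older library was above every newborn one. Its mean went from 53.7 ± 9.55 to 98.2 ± 16.5 TPM at day 7, a difference of 0.86 ± 0.23 (SE, limma adjusted p = 0.0275), and to 107 ± 31.2 TPM at day 15, a difference from day 0 of 0.96 ± 0.23 (limma adjusted p = 0.0128). The day 15 call held in 19 of 20 alternative settings and not in the fit without newborn replicate 6 (limma adjusted p = 0.0673). The day 7 call was lost in 6 settings, among them the fits that left out newborn replicate 4 (limma adjusted p = 0.0968), newborn replicate 6 (0.117), day 7 replicate 2 (0.0599) or day 7 replicate 5 (0.0855).

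ACADS held 40.7, 43.8 and 43.5 TPM in the newborn libraries, 61.3, 64.8 and 52.1 TPM at day 7 and 63.7, 78.0 and 70.7 TPM at day 15. The newborn libraries were nearly level, and no older library overlapped them. The day 15 difference was 0.71 ± 0.16 (SE, limma adjusted p = 0.0101) and held without each library in turn. It was lost with the replicate number as a block (limma adjusted p = 0.109). At day 7 the difference of 0.46 missed the threshold on the deposited values (limma adjusted p = 0.0668) and passed after median-of-ratios scaling (0.55, limma adjusted p = 0.00544).

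ACADM held 105, 105 and 122 TPM in the newborn libraries, 119, 157 and 116 TPM at day 7 and 124, 228 and 208 TPM at day 15. At day 7 the ranges overlap, and at day 15 the lowest library, replicate 1, was close to the highest newborn one. The day 15 difference of 0.70 ± 0.23 (SE) passed with a limma adjusted p of 0.0431. The call was lost in 8 of 20 settings. Leaving out newborn replicate 4, 5 or 6 gave a limma adjusted p of 0.112, 0.0827 or 0.0957, leaving out day 7 replicate 2 gave 0.0541, and leaving out day 15 replicate 2 or 6 gave 0.112 or 0.147.

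**Figure D3:**
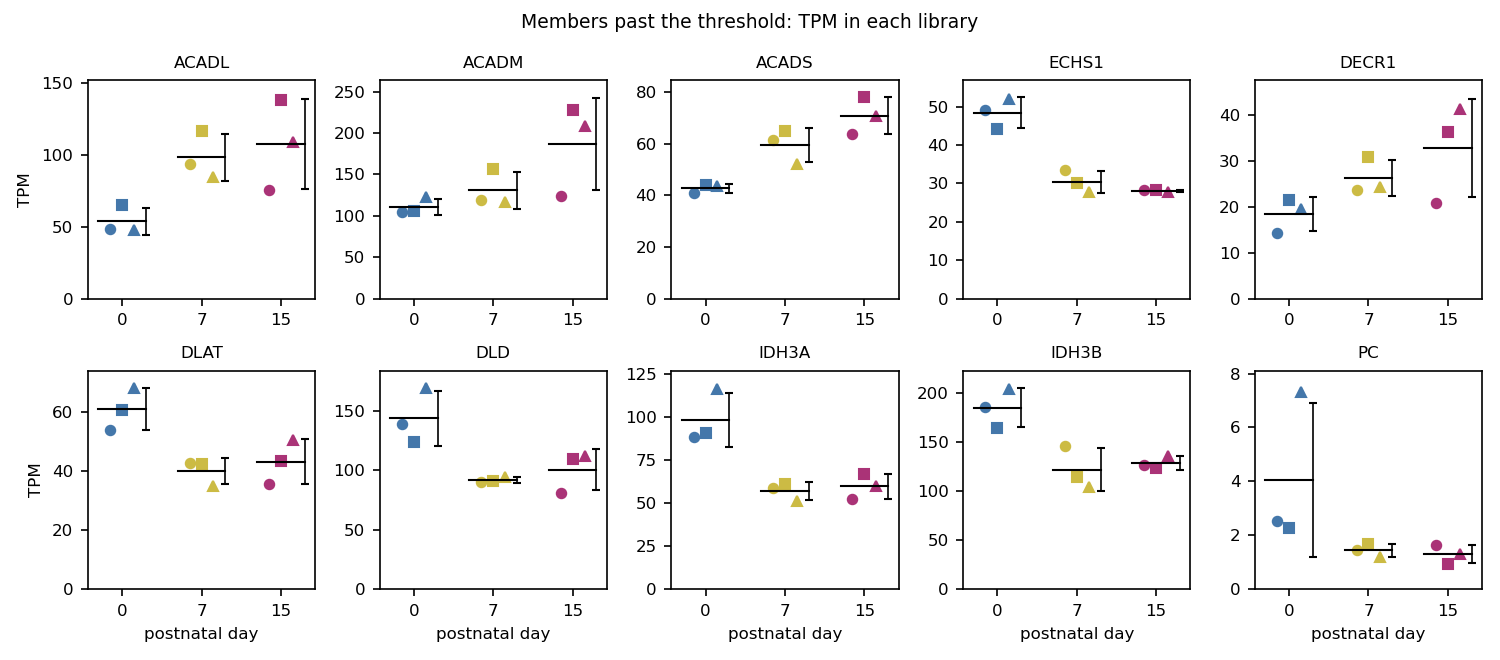
TPM (y axis) by postnatal day (x axis) for the 10 members past the threshold in day 7 or day 15 against day 0; circles, squares and triangles are the libraries of an age in the order of their replicate numbers, horizontal lines are means and error bars SD (n = 3). ECHS1 lies between 27.7 and 33.5 TPM in the older libraries, below all newborn ones, and PC is raised in newborn replicate 6 at 7.33 TPM.

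Ratios taken within a library do not depend on how libraries are scaled, and they are given as a description with no test, since the pairs were picked with the members' values known. ACADL relative to ACADVL was 0.104, 0.181 and 0.0919 in the newborn libraries, 0.217, 0.369 and 0.267 at day 7 and 0.231, 0.335 and 0.312 at day 15. ACADS relative to ACADVL was 0.0873, 0.123 and 0.0838 in the newborn libraries, 0.142, 0.205 and 0.165 at day 7 and 0.195, 0.190 and 0.203 at day 15. For both ratios the newborn libraries lay below all older ones, with newborn replicate 5 nearest to them. ACADM relative to ACADVL averaged 0.251 ± 0.0376, 0.380 ± 0.111 and 0.509 ± 0.116 at the 3 ages, and only the day 0 and day 15 libraries were apart.

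The next steps of the cycle are carried by 2 sets of enzymes. The trifunctional protein, made of HADHA (hydratase and dehydrogenase) and HADHB (thiolase), handles long chains, and neither subunit passed. HADHA held 251, 178 and 273 TPM in the newborn libraries, 218, 219 and 153 TPM at day 7 and 148, 211 and 171 TPM at day 15. HADHB held 439, 279 and 474 TPM in the newborn libraries, 421, 419 and 301 TPM at day 7 and 293, 432 and 393 TPM at day 15. Both were lowest among the newborn libraries in replicate 5, and their ranges overlap across ages (day 15 minus day 0 -0.40 for HADHA and -0.07 for HADHB, limma adjusted p = 0.200 and 0.841). The ratio of HADHB to HADHA was 1.68 ± 0.103, 1.94 ± 0.0243 and 2.11 ± 0.171 at day 0, 7 and 15, and its ranges at the 3 ages were separate. Those of day 7 and day 15 nearly met, with day 7 replicate 6 at 1.966 and day 15 replicate 1 at 1.976.

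ECHS1, the short-chain enoyl-CoA hydratase of the matrix, fell. It held 49.2, 44.1 and 52.1 TPM in the newborn libraries, 33.5, 30.1 and 27.8 TPM at day 7 and 28.2, 28.2 and 27.7 TPM at day 15. All 6 older libraries were below the lowest newborn one, and the day 15 libraries were nearly identical. The difference was -0.65 ± 0.16 (SE) at day 7 and -0.77 ± 0.16 at day 15 (limma adjusted p = 0.0181 and 0.00696). The day 15 call held without each library in turn and after median-of-ratios scaling (-0.50, limma adjusted p = 0.0269). The day 7 call was lost without newborn replicate 4 or 6 (limma adjusted p = 0.0676 and 0.0854) and without day 7 replicate 5 or 6 (limma adjusted p = 0.0534 and 0.0594). With the replicate number as a block, the day 7 and day 15 calls were both lost (limma adjusted p = 0.0811 and 0.0812).

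HADH, the short-chain hydroxyacyl-CoA dehydrogenase that acts after ECHS1, had higher means at both older ages. It held 173, 178 and 177 TPM in the newborn libraries, 225, 223 and 218 TPM at day 7 and 189, 227 and 231 TPM at day 15. Every older library was above every newborn one, although the difference did not pass on the deposited values (day 7 0.34, limma adjusted p = 0.138, day 15 0.29, limma adjusted p = 0.178). It passed after median-of-ratios scaling at both ages (limma adjusted p = 0.0231 and 0.00803). The ratio of HADH to ECHS1 was 3.51, 4.03 and 3.39 in the newborn libraries, 6.71, 7.43 and 7.84 at day 7 and 6.70, 8.05 and 8.35 at day 15. ACAA2, the matrix thiolase that ends the cycle for medium and short chains, held 54.0 ± 6.89, 67.4 ± 8.75 and 80.3 ± 14.3 TPM at the 3 ages and was just outside the threshold at day 15 (0.55, limma adjusted p = 0.0510, and 0.00333 after median-of-ratios scaling).

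Unsaturated fatty acids need auxiliary enzymes, and the 2 enoyl-CoA isomerases that move their double bonds had day 7 differences of opposite sign. ECI1 held 65.4, 66.5 and 69.2 TPM in the newborn libraries, 100.3, 90.3 and 87.7 TPM at day 7 and 70.9, 90.4 and 79.7 TPM at day 15. ECI2 held 133, 119 and 149 TPM in the newborn libraries, 104, 93.7 and 87.5 TPM at day 7 and 105, 114 and 109 TPM at day 15. ECI1 was above and ECI2 below its newborn range in every day 7 library, and neither difference passed (0.46 and -0.48, limma adjusted p = 0.0631 and 0.0551). After median-of-ratios scaling ECI1 passed at day 7 (0.55, limma adjusted p = 0.00741) and at day 15 (0.52, limma adjusted p = 0.00840), and ECI2 passed at neither age (limma adjusted p = 0.0518 and 0.945). The ratio of ECI1 to ECI2 was 0.506 ± 0.0491 at day 0, 0.977 ± 0.0220 at day 7 and 0.734 ± 0.0613 at day 15, so it was highest at day 7 with no overlap between any 2 ages.

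DECR1, the dienoyl-CoA reductase, rose by day 15. It held 14.2, 21.5 and 19.4 TPM in the newborn libraries, 23.6, 30.8 and 24.3 TPM at day 7 and 20.9, 36.2 and 41.2 TPM at day 15. Day 15 replicate 1 lay inside the newborn range and replicates 2 and 6 lay above it. The difference was 0.77 ± 0.25 (SE, limma adjusted p = 0.0438), and the call was lost in 8 of 20 settings. Leaving out newborn replicate 4 or 6 gave a limma adjusted p of 0.147 or 0.108, leaving out day 7 replicate 2 or 6 gave 0.0566 or 0.0542, and leaving out day 15 replicate 2 or 6 gave 0.0955 or 0.169.

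**Figure D4:**
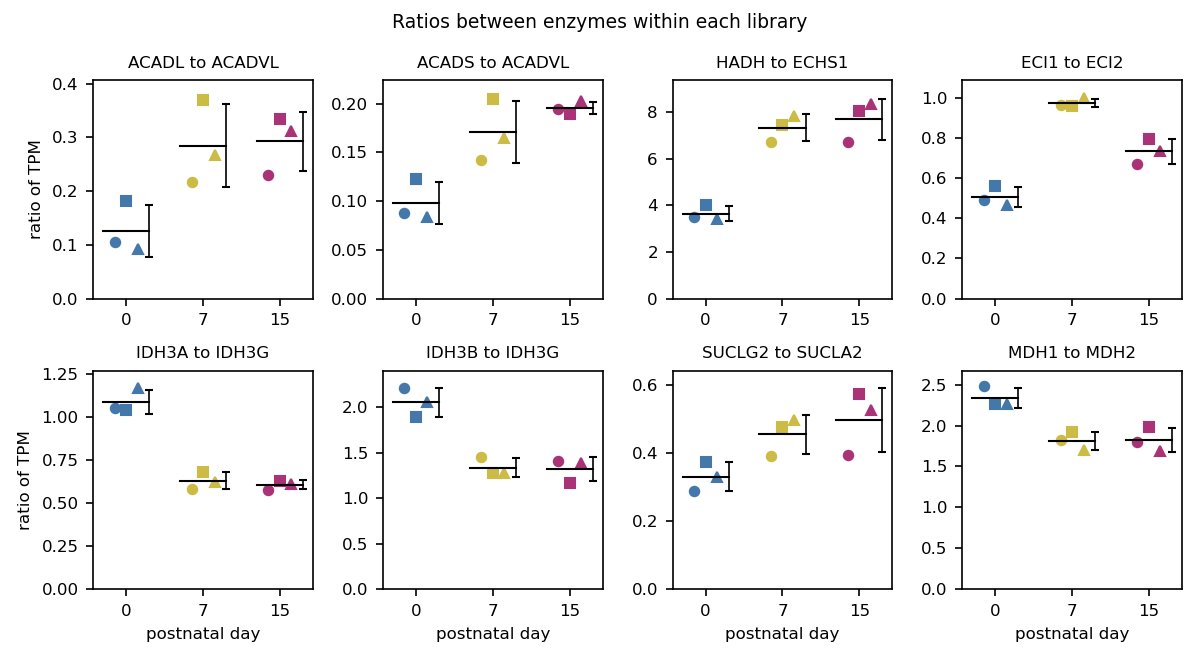
Ratios of TPM between 2 enzymes in the same library (y axis) by postnatal day (x axis); circles, squares and triangles are the libraries of an age in the order of their replicate numbers, horizontal lines are means and error bars SD (n = 3). The ratio of HADH to ECHS1 went from 3.64 to 7.70 between day 0 and day 15, and that of IDH3A to IDH3G from 1.09 to 0.608.

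Electrons from the acyl-CoA dehydrogenases pass through the electron transfer flavoprotein, ETFA with ETFB, and its oxidoreductase ETFDH. No subunit passed in any contrast (limma, 0 of 3, with 1 lower at an unadjusted p under 0.05 for day 7 against day 0 and 0 for day 15 against day 0). ETFDH, the most abundant, held 247, 224 and 262 TPM in the newborn libraries, 209, 195 and 159 TPM at day 7 and 172, 215 and 189 TPM at day 15. The newborn libraries were above all the others (-0.35 at day 15, limma adjusted p = 0.148). ETFA had means of 196 ± 18.9, 151 ± 10.4 and 162 ± 30.1 TPM, and ETFB of 186 ± 19.4, 208 ± 49.5 and 198 ± 14.0 TPM. The largest difference of ETFB, 0.14 at day 7, had a 95% interval of -0.28 to 0.56.

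The pyruvate dehydrogenase complex joins the E1 subunits PDHA1 and PDHB, the acetyltransferase core DLAT, the binding protein PDHX and the dihydrolipoamide dehydrogenase DLD, which the 2-oxoglutarate dehydrogenase complex also uses. All subunits had lower means at day 7 than at day 0, and DLAT and DLD fell. DLAT held 54.0, 60.5 and 68.0 TPM in the newborn libraries, 42.6, 42.2 and 34.7 TPM at day 7 and 35.5, 43.3 and 50.5 TPM at day 15. DLD, the most abundant of the subunits listed by symbol, held 139, 124 and 169 TPM in the newborn libraries, 90.6, 90.6 and 94.6 TPM at day 7 and 80.8, 109 and 112 TPM at day 15. For both genes the newborn libraries were above all older ones.

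The day 7 difference was -0.60 ± 0.18 (SE) for DLAT and -0.63 ± 0.18 for DLD (limma adjusted p = 0.0434 and 0.0360). At day 15 the differences were -0.49 and -0.52 and did not pass (limma adjusted p = 0.0661 and 0.0573). The DLAT call at day 7 was lost without any 1 of the newborn or day 7 libraries and without day 15 replicate 6 (limma adjusted p from 0.0590 to 0.167). The DLD call was lost without newborn replicate 4 or 6, any of the day 7 libraries, or day 15 replicate 6 (limma adjusted p from 0.0546 to 0.159). PDHB had means of 57.7 ± 6.10, 46.1 ± 2.00 and 49.2 ± 8.99 TPM and PDHX of 54.3 ± 4.15, 40.9 ± 8.05 and 43.3 ± 6.90 TPM, and neither passed. The ratio of PDHX to DLAT overlapped between all ages, at 0.900 ± 0.121, 1.02 ± 0.121 and 1.01 ± 0.0750, and so did that of DLD to DLAT, at 2.37 ± 0.288, 2.33 ± 0.341 and 2.34 ± 0.164. That of PDHB to DLAT was 0.951 ± 0.0729, 1.17 ± 0.0907 and 1.14 ± 0.121, with the newborn libraries below all others. Newborn replicate 4 at 1.02 was close to day 15 replicate 6 at 1.05.

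PDHA1 (ENSSSCG00000023643), the catalytic E1 alpha subunit, held 257, 244 and 280.2 TPM in the newborn libraries, 198, 228 and 236 TPM at day 7 and 212, 239 and 263 TPM at day 15. The day 7 libraries were below the newborn ones and the day 15 libraries overlapped them, and no contrast passed (day 7 -0.24, limma adjusted p = 0.307). Citrate synthase, CS (ENSSSCG00000035686), which starts the TCA cycle, held 306, 284 and 337 TPM in the newborn libraries, 233, 233 and 203 TPM at day 7 and 217, 279 and 277 TPM at day 15. All older libraries were below the newborn ones, and the day 7 difference of -0.47 missed the threshold (limma adjusted p = 0.0697), while after median-of-ratios scaling it passed (-0.38, limma adjusted p = 0.0286). Both names rest on a table that pairs Ensembl identifiers with symbols, and these 2 genes are not in the counts of 35.

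In the TCA cycle, 2 of the 11 members found by symbol fell in each comparison with day 0. None of the 11 rose on the deposited values (limma, 0 also at an unadjusted p under 0.05), while after median-of-ratios scaling 2 rose and 1 fell by day 15. Over all genes tested, 7.67% rose and 8.88% fell by day 7, and 5.53% and 18.4% by day 15. After median-of-ratios scaling the day 15 shares were 16.5% and 14.7%. The 2 that fell on the deposited values, IDH3A and IDH3B, are subunits of the NAD-linked isocitrate dehydrogenase. That enzyme has a catalytic alpha subunit (IDH3A) and the beta and gamma subunits IDH3B and IDH3G. IDH3A held 88.5, 90.7 and 117 TPM in the newborn libraries, 58.5, 61.3 and 51.5 TPM at day 7 and 52.1, 66.8 and 60.1 TPM at day 15. IDH3B held 186, 165 and 205 TPM in the newborn libraries, 146, 115 and 105 TPM at day 7 and 126, 124 and 136 TPM at day 15. For both, no older library reached the newborn range.

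IDH3A fell by 0.77 ± 0.18 (SE) at day 7 and by 0.71 ± 0.18 at day 15 relative to day 0 (limma adjusted p = 0.0152 and 0.0143). Both calls held after median-of-ratios scaling, and neither held without newborn replicate 6 (limma adjusted p = 0.0823 and 0.0808). The day 7 call was also lost without day 7 replicate 6 (limma adjusted p = 0.0510) and the day 15 call without day 15 replicate 6 (limma adjusted p = 0.0531). Both were lost with the replicate number as a block (limma adjusted p = 0.0526 and 0.129). IDH3B fell by 0.61 at day 7 (limma adjusted p = 0.0341) and by 0.52 at day 15 (limma adjusted p = 0.0478). The day 15 call of IDH3B was lost in 13 of 20 settings, with a difference of -0.25 after median-of-ratios scaling (limma adjusted p = 0.287). Leaving out newborn replicate 4 or 6 gave a limma adjusted p of 0.114 or 0.185, leaving out day 7 replicate 5 gave 0.0641, and leaving out day 15 replicate 1, 2 or 6 gave 0.0913, 0.0811 or 0.102. Its day 7 call was lost in 6 settings, which included leaving out newborn replicate 4 or 6 (limma adjusted p = 0.104 or 0.142), day 7 replicate 5 or 6 (0.0974 or 0.102) and day 15 replicate 6 (0.0569).

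The third subunit, IDH3G, did not pass on the deposited values. It held 84.0, 86.8 and 99.6 TPM in the newborn libraries, 100.4, 89.9 and 82.2 TPM at day 7 and 89.9, 106 and 98.2 TPM at day 15, and the day 15 difference of 0.12 had a 95% interval of -0.23 to 0.47. After median-of-ratios scaling that difference was 0.39 and passed (limma adjusted p = 0.0261). Within libraries, IDH3A relative to IDH3G was 1.05, 1.04 and 1.17 in the newborn libraries, 0.583, 0.682 and 0.626 at day 7 and 0.580, 0.630 and 0.613 at day 15. IDH3B relative to IDH3G was 2.22, 1.90 and 2.06 in the newborn libraries, 1.46, 1.28 and 1.27 at day 7 and 1.41, 1.17 and 1.39 at day 15. Both ratios were higher in all newborn libraries than in any older one, and the ratio of IDH3A to IDH3B overlapped between ages (0.532 ± 0.0495, 0.476 ± 0.0689 and 0.465 ± 0.0674).

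The NADP-linked mitochondrial enzyme IDH2, the most abundant TCA member by symbol, held 635, 645 and 691 TPM in the newborn libraries, 795, 616 and 521 TPM at day 7 and 663, 629 and 642 TPM at day 15. The day 7 libraries spread to both sides of the newborn range, and the day 15 difference of -0.03 had a 95% interval of -0.41 to 0.35. IDH2 relative to IDH3A was 6.74 ± 0.706 at day 0, 11.2 ± 2.02 at day 7 and 10.9 ± 1.67 at day 15, and the newborn libraries were below all others.

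The remaining TCA members did not pass in any contrast. OGDH, the first component of the 2-oxoglutarate dehydrogenase complex, had means of 223 ± 32.9, 182 ± 21.4 and 168 ± 8.32 TPM. Its day 15 difference was -0.40 (limma adjusted p = 0.0994). The succinyltransferase of that complex, DLST, had 128 ± 9.04, 101 ± 19.1 and 111 ± 7.22 TPM. Fumarase, FH, had 111 ± 17.8, 85.3 ± 11.1 and 93.4 ± 9.60 TPM. The shared alpha subunit of succinyl-CoA synthetase, SUCLG1, had 527 ± 16.2, 440.1 ± 50.6 and 477 ± 65.8 TPM. All 4 had their highest mean at day 0. MDH2 had nearly the same mean at each age, 512 ± 41.0, 509.7 ± 70.5 and 520.3 ± 36.3 TPM, with a 95% interval of -0.33 to 0.38 for day 15 minus day 0.

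The 2 alternative beta subunits of succinyl-CoA synthetase set whether the enzyme forms ATP (SUCLA2) or GTP (SUCLG2), and neither passed on the deposited values. SUCLA2 held 125, 123 and 133 TPM in the newborn libraries, 111, 108 and 94.1 TPM at day 7 and 96.2, 116 and 121 TPM at day 15. SUCLG2 held 36.2, 46.0 and 43.9 TPM in the newborn libraries, 43.3, 51.2 and 46.9 TPM at day 7 and 37.9, 66.6 and 63.7 TPM at day 15. The SUCLA2 libraries were lower at both older ages than at day 0, and SUCLG2 overlapped between ages, with day 15 replicate 1 low and replicates 2 and 6 high. The ratio of SUCLG2 to SUCLA2 was 0.331 ± 0.0426, 0.455 ± 0.0569 and 0.498 ± 0.0937 at the 3 ages, and the newborn libraries were below all others. Newborn replicate 5 at 0.374 came close to day 7 replicate 2 at 0.391 and day 15 replicate 1 at 0.394. SUCLG2 passed at day 15 only after rescaling (0.63 with median-of-ratios scaling, limma adjusted p = 0.00834) or without day 15 replicate 1 (0.63, limma adjusted p = 0.0324).

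The malate-aspartate shuttle, which carries cytosolic reducing equivalents into mitochondria, uses MDH1 and GOT1 in the cytosol and MDH2 and GOT2 in mitochondria. On the deposited values none of the 4 passed in any contrast (limma). MDH1 held 1228, 1092 and 1266 TPM in the newborn libraries, 1057, 974 and 750.5 TPM at day 7 and 865, 1044 and 937 TPM at day 15. The older libraries were below the newborn ones (-0.38 at day 7, limma adjusted p = 0.148). MDH1 relative to MDH2 was 2.48, 2.27 and 2.27 in the newborn libraries, 1.82, 1.92 and 1.70 at day 7 and 1.80, 1.99 and 1.69 at day 15, lower in every older library.

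For the transaminases, which swap amino groups between aspartate and glutamate, the cytosolic share was higher in the older libraries. GOT1 had means of 233 ± 26.5, 238 ± 16.0 and 267 ± 45.0 TPM and GOT2 of 403 ± 24.6, 339 ± 49.4 and 389 ± 40.8 TPM. The ratio of GOT1 to GOT2 was 0.577 ± 0.0466, 0.708 ± 0.0689 and 0.686 ± 0.105, with the newborn libraries below all others. The gap was narrow, with newborn replicate 4 at 0.609 and day 15 replicate 1 at 0.611. GOT1 passed at day 15 only after rescaling (0.45 with median-of-ratios scaling, limma adjusted p = 0.0208).

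Pyruvate carboxylase, PC, which makes oxaloacetate from pyruvate and is also abundant in fat and liver, had low levels throughout. It held 2.52, 2.28 and 7.33 TPM in newborn replicates 4, 5 and 6, 1.45, 1.67 and 1.20 TPM at day 7 and 1.62, 0.948 and 1.31 TPM at day 15. It fell by day 15 (-1.01 ± 0.30 SE, limma adjusted p = 0.0310), from a newborn mean of 4.04 ± 2.85 TPM, and newborn replicate 6 was above all other libraries. The call was lost in 7 of the 19 settings in which PC was tested, with -0.81 after median-of-ratios scaling (limma adjusted p = 0.0629). Without that library the difference was -0.58 (limma adjusted p = 0.101), and without day 15 replicate 2 or 6 the limma adjusted p was 0.0732 or 0.0750. Fat cell markers were also raised in that library. ADIPOQ held 1.65, 0.151 and 13.5 TPM in the newborn libraries and PLIN1 0.977, 0.267 and 8.15 TPM, while in the older libraries ADIPOQ was 0.0526 to 0.146 TPM. The summed level of the 4 fat cell markers was 1.37 to 23.5 TPM at day 0, 0.993 to 1.27 TPM at day 7 and 0.469 to 0.999 TPM at day 15, and their part in the PC result was not tested. Of the defining markers, PLIN1 was at 0 in day 15 replicate 6 and ADIPOQ was above 0 in all libraries.

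From day 7 to day 15 no member passed (limma, 0 of 35, and 0 of 35 at an unadjusted p under 0.05), in a comparison in which 0.171% of all genes tested passed (0.0408% rose and 0.13% fell). On the deposited values 27 members had a positive difference and 8 a negative one, with a median of 0.09 beside -0.15 for all genes tested. The differences ran from -0.21 (ECI1) to 0.48 (ACADM), and ACADM went from 131 ± 22.7 to 187 ± 55.4 TPM, with a 95% interval of -0.02 to 0.97 and a limma adjusted p of 0.409. Over all members the 95% intervals lay between -0.75 (PC) and 0.97 (ACADM). After median-of-ratios scaling 0 members passed, and the median of the members was 0.26 beside 0.00 for all genes. In that fit 17 had an unadjusted limma p under 0.05, all of them upward, against 14.1% of all genes tested in either direction. This count depended on how libraries were rescaled. It was 6, all upward, without mitochondrially encoded and the 20 most abundant genes, against 15.5% of all genes. Without only the most abundant gene it was 4, all upward, against 15.6%. The member medians in those fits were 0.17 and 0.16, beside -0.09 and -0.09 for all genes.

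Several members had their lowest mean at day 7, although a high day 0 alone can put day 7 below the mean of the other ages. In the contrast of day 7 with the mean of the other ages no member passed (limma, 0 of 35, with 1.92% of all genes tested called, 1.53% rising and 0.391% falling), and 5 were lower and 1 was higher at an unadjusted p under 0.05. The 5 were IDH3A (-0.41), DLD (-0.37), DLAT (-0.35), IDH3B (-0.35) and ECI2 (-0.34), and the 1 that was higher was ECI1 (0.34). From day 7 to day 15 those 5 differed by only 0.06, 0.11, 0.10, 0.09 and 0.20 in that order, and none passed. After median-of-ratios scaling IDH3A passed (-0.45, limma adjusted p = 0.0300), while its day 15 minus day 7 difference did not (0.23, limma adjusted p = 0.315).

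Counted by libraries rather than by the test, 5 members were higher in every day 7 library than in any newborn one and 15 were lower (14.3% and 42.9% of the members), against 17.6% and 23.8% of all genes tested. For day 15 against day 0 the counts were 6 and 13 (17.1% and 37.1%), against 9.45% and 30.5% of all genes. Between day 7 and day 15, 1 member, ECI2, was higher without overlap and 0 were lower, against 1.46% and 17.9%. The 5 that were higher at day 7 were ACADL, ACADS, HADH, ECI1 and DECR1, and the 15 that were lower held 4 members of the fatty acid oxidation groups, ECHS1, ECI2, ETFA and ETFDH.

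Other genes of these pathways were taken from 6 lists of 82 symbols, of which 71 were in the Gene column and 68 passed the filter. From day 0 to day 7, 6 rose and 10 fell (8.82% and 14.7%), against 7.67% and 8.88% of all genes tested. From day 0 to day 15, 10 rose and 12 fell (14.7% and 17.6%), against 5.53% and 18.4%, and the medians were -0.05 and -0.11. No gene of these lists passed from day 7 to day 15 (limma, 0 of 68, with 4 higher and 3 lower at an unadjusted p under 0.05, median 0.02). The 16 calls at day 7 were all lost without newborn replicate 6, and 15 without newborn replicate 4. Of the 22 calls at day 15, 17 were lost without newborn replicate 6, and 5 held without any 1 library, among them those of ACSS1, CROT, IVD and PCK2.

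Around the TCA cycle, 8 genes were tested. The succinate dehydrogenase assembly factor SDHAF1 fell by 0.94 at day 7 and by 0.89 at day 15 (limma adjusted p = 0.0206 and 0.0188). The succinate dehydrogenase subunit SDHD fell at day 7 (-0.58, limma adjusted p = 0.0453) and the subunit SDHB at day 15 (-0.49, limma adjusted p = 0.0488), and these 2 calls were lost in 10 and 13 of 20 settings.

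Among 16 further mitochondrial acyl-CoA enzymes, 2 rose and 1 fell by day 7 and 4 rose and 1 fell by day 15, and after median-of-ratios scaling the day 15 counts were 8 and 0. Over all genes tested, 7.67% rose and 8.88% fell by day 7, and 5.53% and 18.4% by day 15. After median-of-ratios scaling the day 15 shares were 16.5% and 14.7%. The mitochondrial acetyl-CoA synthetase ACSS1 went from 9.76 ± 1.63 to 26.1 ± 17.7 and 58.2 ± 11.4 TPM, a day 15 difference of 2.46 ± 0.37 (SE, limma adjusted p = 0.00215) that held in all 20 settings. Isovaleryl-CoA dehydrogenase, IVD, a relative of the acyl-CoA dehydrogenases that acts on leucine products, rose by 0.86 at day 7 and 0.99 at day 15 from 30.7 ± 4.06 TPM (limma adjusted p = 0.0107 and 0.00433). The acyl-CoA dehydrogenase ACAD11 (0.78) and ECHDC3 (0.91) also rose by day 15, ECHDC2 rose at day 7 (0.97), and the thioesterase ACOT9 fell at both ages (-0.62 and -0.55). ACOT13, the most abundant, had 125 ± 12.0, 119 ± 24.9 and 124 ± 7.93 TPM.

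Peroxisomes shorten fatty acids with their own enzymes, and of 13 such genes 3 rose and 1 fell by day 7 and 5 rose and 2 fell by day 15. The shares over all genes tested were 7.67% and 8.88% by day 7 and 5.53% and 18.4% by day 15. The carnitine octanoyltransferase CROT rose from 6.84 ± 2.00 to 16.3 ± 2.35 and 17.3 ± 5.47 TPM (1.16 and 1.21, limma adjusted p = 0.0128 and 0.00800). The bifunctional enzyme EHHADH rose by 0.76 and 0.95 and the thiolase ACAA1 by 0.64 and 0.64, and SCP2 (0.54) and the reductase DECR2 (0.76) rose by day 15. The peroxisomal importer ABCD3 fell by day 15 (-0.72). CRAT, carnitine acetyltransferase and the most abundant of the list, had 157 ± 20.2, 171 ± 28.3 and 180.4 ± 29.7 TPM and did not pass.

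Of 9 genes of pyruvate entry and its control, 2 fell by day 7 and 3 by day 15, and none rose (limma, with 1 higher at an unadjusted p under 0.05 at each age). After median-of-ratios scaling 1 rose at each age and 1 and 2 fell. On the deposited values 7.67% of all genes tested rose and 8.88% fell by day 7, and 5.53% and 18.4% by day 15. With median-of-ratios scaling these shares were 16.8% and 14.4%, then 16.5% and 14.7%. The subunits of the mitochondrial pyruvate carrier were both lower at day 7. MPC1 held 634, 494 and 736 TPM in the newborn libraries, 457, 421 and 329 TPM at day 7 and 434, 431 and 413 TPM at day 15. MPC2 held 283, 226 and 299 TPM in the newborn libraries, 173, 138 and 131 TPM at day 7 and 132, 183 and 146 TPM at day 15. MPC2 fell by 0.87 and 0.81 (limma adjusted p = 0.0128 and 0.0115) and MPC1 by 0.62 at day 7 (limma adjusted p = 0.0434, lost in 10 of 20 settings). Mitochondrial phosphoenolpyruvate carboxykinase, PCK2 (-1.31), and the pyruvate dehydrogenase phosphatase PDP2 (-0.55) fell by day 15 from low levels of 3.73 and 2.47 TPM.

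Of 10 mitochondrial carriers and linked enzymes, 3 fell by day 7 and 2 by day 15, and none rose (limma, with 0 and 1 higher at an unadjusted p under 0.05). After median-of-ratios scaling 4 fell by day 7, and by day 15 2 rose and 0 fell. On the deposited values 7.67% of all genes tested rose and 8.88% fell by day 7, and 5.53% and 18.4% by day 15. With median-of-ratios scaling these shares were 16.8% and 14.4%, then 16.5% and 14.7%. The ADP/ATP carrier of muscle, SLC25A4, went from 4893 ± 1202 to 2650.1 ± 485 and 2924 ± 294 TPM (limma adjusted p = 0.0199 and 0.0301). The aspartate-glutamate carrier SLC25A12 fell by 0.59 and 0.58 and the oxoglutarate-malate carrier SLC25A11 by 0.68 at day 7, and both serve the malate-aspartate shuttle. After median-of-ratios scaling the day 15 differences of SLC25A4 and SLC25A12 did not pass (limma adjusted p = 0.182 and 0.0759).

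Lipoate is the swinging arm of DLAT and DLST, and genes that supply it and other cofactors moved in both directions. Of 12 tested, 1 rose and 1 fell by day 7 and 1 rose and 2 fell by day 15. The shares over all genes tested were 7.67% and 8.88% by day 7 and 5.53% and 18.4% by day 15. Lipoic acid synthetase, LIAS, rose from 11.3 ± 2.99 to 19.4 ± 2.02 and 20.3 ± 3.14 TPM (limma adjusted p = 0.0275 and 0.0150). The lipoyltransferase LIPT1 fell by day 15 (-0.62), and GLRX5, a glutaredoxin of iron-sulphur cluster assembly and the most abundant of the list, fell by 0.66 and 0.78.

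Markers of heart muscle and of other cell types moved over the same ages. For the marker counts here and below, 7.67% of all genes tested rose and 8.88% fell by day 7. By day 15 these shares were 5.53% and 18.4%. The summed level of 9 cardiomyocyte genes was 49509 to 58376 TPM at day 0, 49358 to 55806 TPM at day 7 and 46731 to 57779 TPM at day 15, and 1 of the 9, CKM, rose at both ages. Of 8 fibroblast genes 2 rose by day 7 (COL3A1 and POSTN, summed level of the 8 928 to 1439 TPM, then 1623 to 2226 TPM) and 0 passed by day 15 (1159 to 1475 TPM). Of 7 endothelial genes, 2 rose and 1 fell by day 7 and 1 fell by day 15 (summed 208 to 245, 312 to 342 and 195 to 233 TPM at the 3 ages). Of 7 pericyte and smooth muscle genes, 1 rose by day 7, and 1 rose and 3 fell by day 15 (summed 215 to 351, 211 to 264 and 159.7 to 175 TPM).

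Of 7 macrophage and leukocyte genes, 1 rose by day 7 and 2 by day 15, with a summed level of 54.7 to 65.5, 57.2 to 100.5 and 49.2 to 218 TPM, the highest value being that of day 15 replicate 2. That library also held the highest level of ACADL, ACADM, ACADS, ACAA2, SUCLG2, GOT1 and IDH3G. Without that library the day 15 calls of ACADL and ACADS held and that of ACADM was lost. Of 5 erythroid genes with values, 3 passed the filter and 1 rose at both ages (summed 392 to 1259.9, 553 to 1213 and 433 to 653 TPM, highest in newborn replicate 5). No marker in the table was at 0 in every library. The part of any of these cell types in the differences between ages was not tested.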

How the data were processed

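The authors deposited 1 table of TPM with 22629 rows and 9 library columns, all of which were used. Per the submitters' processing notes, the tools were Trimmomatic 0.33, HISAT2 2.0.5 and kallisto 0.43.1, with no role stated. Genome build, annotation and the treatment of reads shared by similar genes: not given in the sources used here. Depth is unknown, so no counting interval is given. Since TPM is a share, a change in 1 very abundant transcript alters the TPM of every other gene.

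The 12268 genes with at least 1 TPM in at least 3 libraries were fitted in limma 3.58.1 (R 4.3.3) on log2(TPM + 1), with 1 mean per age over all 9 libraries, a mean-variance trend and Benjamini-Hochberg adjustment at 0.05. The fit was also run on simulated data drawn gene by gene with no shift shared by a library, which cannot assess scaling or single libraries. Tables and plots were made in Python 3.11.15.

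The members and lists were chosen with earlier results of these data known. All members found are named. Values in every library are given for members past the threshold and the most abundant member of each role. Members whose ratios are described were added after their values were seen, except MDH2, GOT1, GOT2, PDHB and PDHX, which are given as means. From the other pathway lists, genes past the threshold and the most abundant gene are named, except for 2 genes that are not reported here; marker genes named singly were chosen after their values were seen. Replicate numbers are not stated to mark a litter or animal, so no block was used. The 20 alternative settings changed the pseudocount (0.1 or 5 TPM), the filter (none, or 5 TPM on average), the scaling (3 ways), the variance model (no trend, or robust) and the samples (only the ages compared, or 1 library fewer), or added the replicate number as a block.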

Additional observations from a re-analysis of the deposited data

How the results depend on the processing

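Counts of members depended on scaling and on single libraries. For day 7 against day 0, 1 member rose and 5 fell, against 7.67% and 8.88% of all genes tested. The risen count was 6 with median-of-ratios scaling and 6 when TPM was rescaled without mitochondrially encoded and the 20 most abundant genes. It was 4 without the most abundant gene and 0 with no filter. Of all genes tested, 16.8%, 19.2%, 14.6% and 3.14% rose in the same settings. Leaving out 1 library gave 0 to 2 risen and 0 to 7 fallen. The fallen count was 0 without newborn replicate 6 or day 7 replicate 6. It was 1 without newborn replicate 4 or day 7 replicate 5, 2 without day 15 replicate 6 and 3 without day 7 replicate 2. Over all genes tested, leaving out 1 library gave 1.6% to 10.3% risen and 1.6% to 12.0% fallen. For day 15 against day 0, 4 rose and 4 fell, against 5.53% and 18.4% of all genes tested. The risen count was 10, 10 and 9 under the 3 rescalings and 2 with no filter, against 16.5%, 14.7%, 11.3% and 2.57% of all genes. The fallen count was 2 with median-of-ratios scaling, 2 without mitochondrially encoded and the 20 most abundant genes, and 2 with no filter. Of all genes, 14.7%, 14.3% and 10.2% fell in those fits. Leaving out 1 library gave 1 to 6 risen and 1 to 6 fallen, against 1.61% to 7.9% and 5.04% to 23.0% of all genes. The member counts were 1 and 1 without newborn replicate 6 and 2 and 1 without day 15 replicate 6. For day 7 against the mean of the other ages, 1 member fell under each of the 3 rescalings, in place of 0. Of all genes, 2.01%, 1.29% and 1.12% fell there. Without mitochondrially encoded and the 20 most abundant genes 1 member also rose, in place of 0, against 4.02% of all genes. For day 15 against day 7 the counts were 0 in every setting run, where at most 0.742% of all genes rose and 0.334% fell. The cause was not tested.

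With the replicate number as a block, 0 members rose and 0 fell at day 7, and 2 rose and 0 fell at day 15. Over all genes 2.65% rose and 4.34% fell at day 7, and 3.23% and 4.26% at day 15. The same number pairs libraries in 5 cases, whose deviations from the age means correlated at -0.21 to 0.17 across genes. Of the 7 libraries with a partner, 3 correlated best with their own number, and these were the libraries numbered 6 (0.03 to 0.17). The labels state no pairing, so none was used in the main fit. Whether number 6 marks a shared litter or batch was not tested. No call of a member changed direction in any setting. TPM carries no depth, so what depth limits could not be assessed.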
